A study of Mus musculus with 18 samples.

Results

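Interferon-stimulated genes are the genes that cells switch on when they sense an interferon. The 41 genes described here were chosen as a list of symbols that was matched to the rows of a raw count table, and 41 of the 41 were found among 31787 symbols. All 41 passed the filter on low counts that left 21050 genes for testing. The list was drawn up as a set of known antiviral and interferon-induced genes and not by any value in the table, although it was proposed with results of these data in view.

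The study measured total RNA from whole mouse kidney after unilateral ureteral obstruction (UUO), a model in which 1 ureter is tied and the kidney behind it becomes inflamed and fibrotic. There were 6 groups of 3 libraries. Twist cKO UUO kidneys came from mice with Cdh5-CreERT2, an inducible Cre driven by an endothelial promoter, and floxed Twist alleles, on a mixed C57BL6, 129sv and Balb/c background at 12 weeks. Snail cKO UUO kidneys carried the same endothelial Cre with floxed Snail alleles on a mixed C57BL6 and Balb/c background at 12 weeks. Myc cKO UUO kidneys carried GGT-Cre, which is driven by a tubular promoter, with floxed Myc alleles on a mixed C57BL6 and Balb/c background at 11 to 12 weeks. WT UUO and contralateral kidneys (the unobstructed kidney of an operated mouse) came from the Twist line at 12 weeks: in each group 2 libraries were Cre-positive with unfloxed Twist and 1 was Cre-negative with floxed Twist. Healthy kidneys came from Cre-negative mice of the same line with floxed Twist, also at 12 weeks. Snail and Myc genotype cannot be told apart from strain background in comparisons with WT UUO. No label ties kidneys to animals, and a p-value here reflects only how far these libraries spread, which may be technical.

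Libraries held 52637555 to 91340782 counts. Mitochondrial ribosomal RNA took 19.2 to 20.3% of counts in WT UUO, 23.7 to 34.9% in the knockouts and 44.6 to 50.3% in unobstructed kidneys. Markers of proximal tubule (Lrp2), thick limb (Umod) and podocyte (Nphs1) were above 0 counts in all 18 libraries. Twist1 had TMM-scaled counts-per-million (CPM) values of 0.378, 0.596 and 0.307 in Twist cKO UUO kidneys, against 2.13, 4.49 and 1.14 CPM in WT UUO kidneys, and passed the test (log2 fold change −2.59 ± 0.49 SE, edgeR adjusted p = 0.0172). Snai1 in Snail cKO UUO (−0.61 ± 0.38, adjusted p = 0.487) and Myc in Myc cKO UUO (−0.45 ± 0.23, adjusted p = 0.217) did not pass against WT UUO. The targeted genes also had lower values in the other knockouts. Snai1 differed from WT UUO by −0.58 in Twist and −1.19 in Myc cKO UUO. Twist1 differed by −0.73 in Snail and −1.35 in Myc cKO UUO, and Myc by −0.02 in Twist and −0.12 in Snail cKO UUO. None of these passed (edgeR adjusted p = 0.0554 to 0.973). In each of these knockouts the targeted cell type is only a portion of the tissue that was ground.

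As background, type I and type III interferons act through a complex that holds STAT2 and IRF9 and binds a DNA element called the interferon-stimulated response element (ISRE). Type II interferon, or interferon gamma, acts through a different element, the gamma-activated site (GAS), and through the factor IRF1. The products of the induced genes sense viral nucleic acid, block viral entry, translation and budding, or attack the vacuoles of intracellular parasites, and some of them damp the response again. In the kidney they are known from viral infection, lupus nephritis and sterile injury, where nucleic acid from damaged cells can set off the same sensors.

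The binding elements can be read in the promoters of the genes. RefSeq promoter windows on build GRCm38.p6, from 250 bases before to 50 bases after the start site, were at hand for 30 of the 41 genes. The ISRE core was searched as GAAA, any 2 bases and GAAA again, and the GAS core as TTC, any 3 bases and GAA, on both strands. The ISRE core lay in the window of 18 of the 30 genes, against 3.99% of the 27025 genes with a window. The GAS core lay in 10 of the 30, against 9.55% of those genes. The stretches below are 60 bases each, 5′ to 3′ on the gene's own strand, with the core in capitals. Isg15 (chr4:156200850-156200909, minus strand), Ifit1 (chr19:34640779-34640838, plus), Oas1a (chr5:120907526-120907585, minus) and Bst2 (chr8:71537562-71537621, minus) are shown because they rose with obstruction and hold overlapping or paired ISRE cores. Gbp2 (chr3:142620579-142620638, plus) stands for the guanylate-binding proteins. Rsad2 (chr12:26456538-26456597, minus), Igtp (chr11:58199496-58199555, plus) and Irgm2 (chr11:58214888-58214947, plus) hold an ISRE core too, and none of the 3 passed the test against contralateral kidney in any obstructed group when all 18 libraries were fitted together. Irf1 (chr11:53769899-53769958, plus) is shown for its GAS core.
Isg15: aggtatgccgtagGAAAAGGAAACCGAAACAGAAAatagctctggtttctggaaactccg
Ifit1: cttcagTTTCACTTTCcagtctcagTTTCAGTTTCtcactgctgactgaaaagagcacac
Oas1a: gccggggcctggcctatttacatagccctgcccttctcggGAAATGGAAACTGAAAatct
Bst2: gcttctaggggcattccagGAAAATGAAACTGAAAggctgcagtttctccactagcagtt
Gbp2: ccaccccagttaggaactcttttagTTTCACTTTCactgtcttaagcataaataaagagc
Rsad2: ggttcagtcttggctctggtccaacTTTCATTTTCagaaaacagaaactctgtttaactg
Igtp: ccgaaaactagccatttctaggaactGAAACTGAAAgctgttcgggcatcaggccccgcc
Irgm2: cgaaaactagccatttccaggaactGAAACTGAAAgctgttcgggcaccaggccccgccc
Irf1: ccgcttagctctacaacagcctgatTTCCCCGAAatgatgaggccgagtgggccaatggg

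In Bst2 the ISRE core overlaps a GAS core that begins at base −136 from the start site. A match is a description of letters and not a bound site. The 18 genes with an ISRE core had a median log2 fold change of 1.21 in WT UUO against contralateral kidney (range 0.19 to 3.40), and the 12 matched genes without one had a median of 1.29 (range 0.01 to 2.67). The 10 genes with a GAS core had a median of 1.29, and the 20 without one had a median of 1.22. The ranges overlapped widely for both cores.

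**Figure D1:**
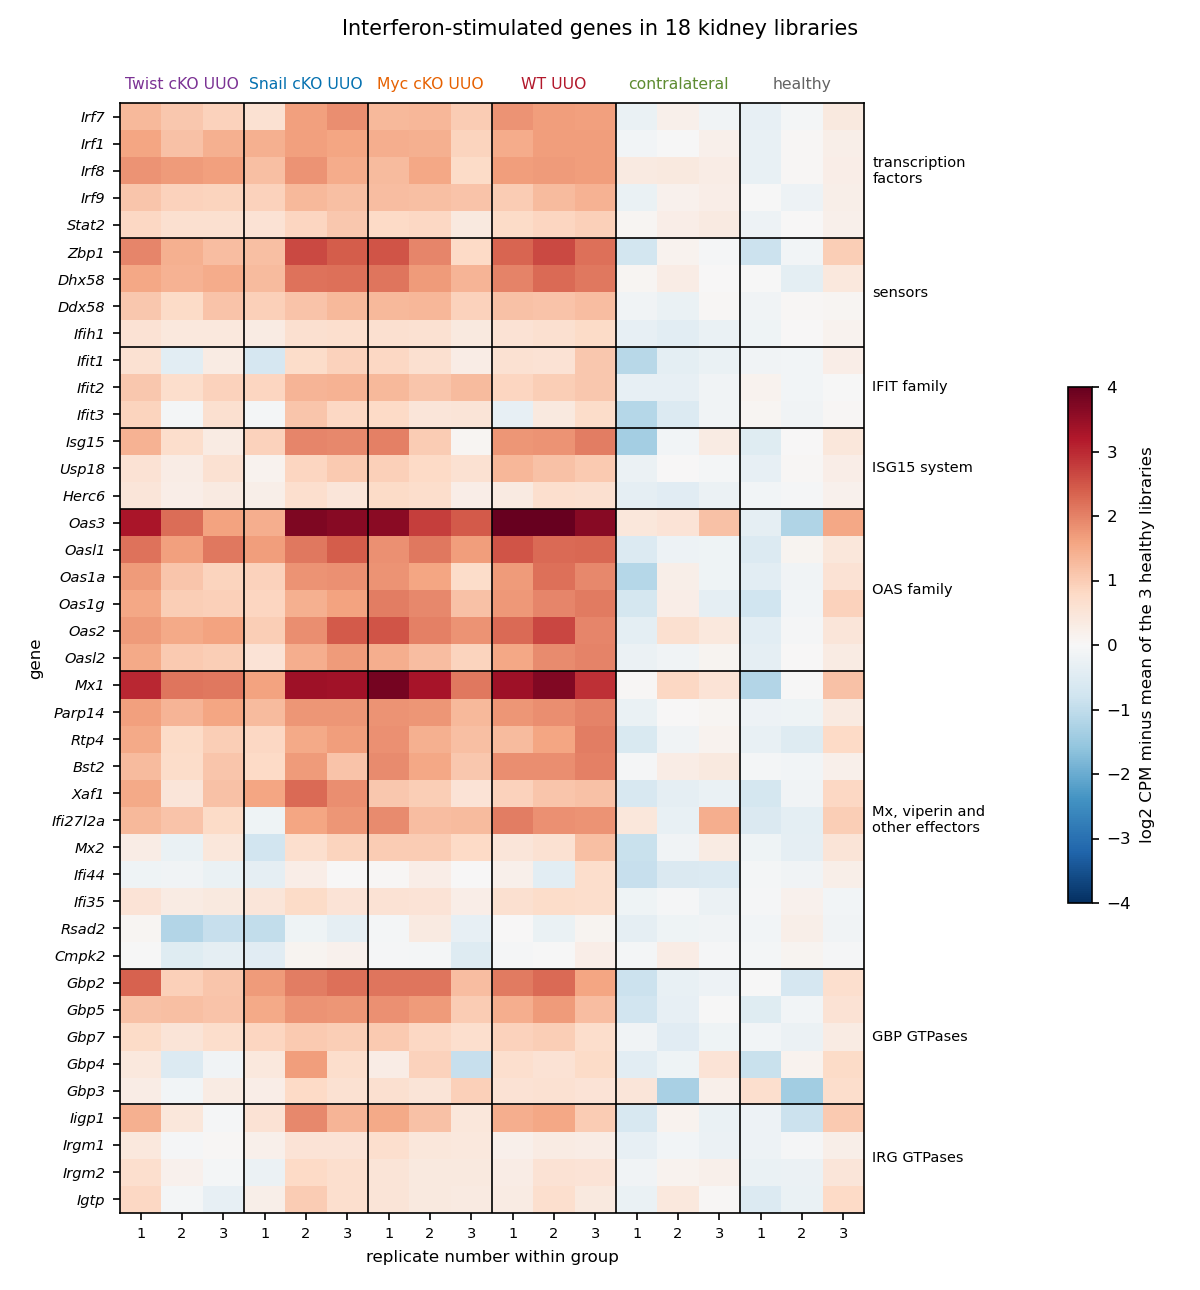
Heat map of the 41 genes (rows, grouped by role) in the 18 libraries (columns, 3 per group), coloured by log2 CPM minus the mean of the 3 healthy libraries. The obstructed kidneys of all 4 groups are red across most rows. Several rows stay near white in WT UUO, among them Rsad2, Cmpk2, Gbp3, Irgm1, Ifi44 and Ifit3.

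Most of these genes were higher in obstructed than in unobstructed kidney. In WT UUO against contralateral kidneys 33 of the 41 genes rose and 0 fell at an edgeR adjusted p under 0.05, where 53.6% of all tested genes were called and 27.5% were called higher. The median log2 fold change over the 41 was 1.32, a median fold of 2.49, against 0.055 over all tested genes. Against healthy kidneys 29 of the 41 rose and 0 fell, where 56.3% of all tested genes were called and 29.2% were called higher, with a median of 1.17 over the 41 and 0.052 over all genes. Both comparisons share the same WT UUO libraries. Whole-kidney RNA cannot tell more cells of a type from more RNA per cell.

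The mean log2 CPM over the 41 genes was 3.91, 4.03 and 4.02 in the WT UUO libraries, against 2.29, 2.60 and 2.72 in contralateral kidneys and 2.37, 2.47 and 3.11 in healthy ones. The lowest obstructed WT library thus lay above the highest unobstructed one. Healthy replicate 3 was the highest of its group in 36 of the 41 genes, and without it 33 of the 41 rose in WT UUO against healthy kidney. Contralateral replicate 1 was the lowest of its group in 32 of the 41, and without it 31 rose in WT UUO against contralateral kidney.

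**Figure D2:**
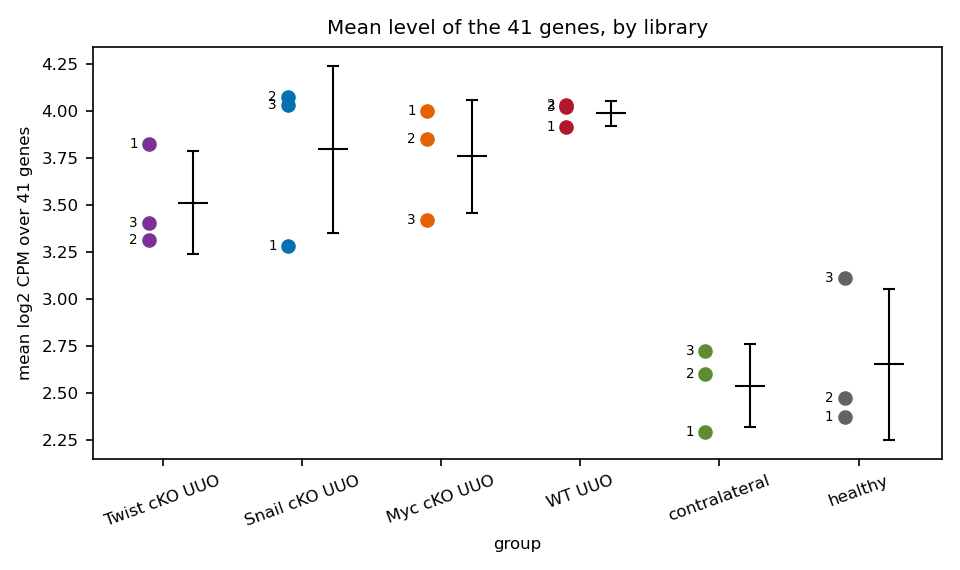
Mean log2 CPM over the 41 genes (y axis) in each library, by group (x axis); the small digits are replicate numbers and the bars beside the points are the group mean ± SD (n = 3). The 3 WT UUO libraries lie between 3.91 and 4.03, above the 6 unobstructed libraries, and the knockout groups spread more widely.

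All 5 transcription factors on the list rose in WT UUO against both unobstructed groups. Irf7, the factor that amplifies type I interferon production, stood at 22.9, 21.1 and 21.0 CPM in WT UUO, against 5.53, 7.71 and 6.10 in contralateral kidneys and 5.35, 6.27 and 8.78 in healthy ones. The groups did not overlap, and its log2 fold change against contralateral kidney was 1.75 ± 0.26 (edgeR adjusted p = 4.83e-05). Irf1, which carries the GAS core shown above and drives the interferon gamma programme, stood at 40.2, 45.9 and 45.6 CPM in WT UUO, against 13.3, 14.1 and 16.7 in contralateral kidneys (1.58 ± 0.17, adjusted p = 1.88e-06). Irf8, a factor of macrophage and dendritic cell development, rose by 1.34 ± 0.18 against contralateral and by 1.66 ± 0.18 against healthy kidney (adjusted p = 1.78e-05 and 2.15e-06). Irf9 rose by 1.16 ± 0.15 (adjusted p = 9.56e-06) and Stat2 by 0.62 ± 0.14 (adjusted p = 0.00186) against contralateral kidney. These last are the DNA-binding and transactivating parts of the complex that binds the ISRE, and Stat2 changed least of the 5.

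The sensors of viral nucleic acid rose in 4 of 4 cases against each unobstructed group. Ddx58 encodes RIG-I and Ifih1 encodes MDA5, the cytosolic receptors for viral RNA. Ddx58 stood at 82.7, 81.7 and 86.6 CPM in WT UUO, against 33.6, 30.4 and 38.6 in contralateral kidneys (1.29 ± 0.14, adjusted p = 2.11e-06). Ifih1 stood at 42.0, 43.6 and 47.4 CPM in WT UUO, against 22.4, 21.1 and 23.4 in contralateral kidneys (0.99 ± 0.11, adjusted p = 2.51e-06). Neither overlapped between groups. Dhx58, whose product LGP2 regulates both receptors, rose by 2.01 ± 0.27 (adjusted p = 1.62e-05). Zbp1, a sensor of left-handed nucleic acid that can start necroptosis, had the largest change of the sensors, at 2.58 ± 0.51 (adjusted p = 5.86e-04), with 5.58, 6.80 and 5.11 CPM in WT UUO against 0.649, 1.21 and 1.07 in contralateral kidneys.

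The IFIT proteins bind foreign RNA ends and block their translation. Ifit2 stood at 30.2, 33.4 and 35.2 CPM in WT UUO, against 13.3, 13.3 and 15.2 in contralateral kidneys and 18.4, 15.6 and 16.7 in healthy ones, without overlap (1.24 ± 0.13 against contralateral, adjusted p = 2.18e-06, and 0.97 ± 0.13 against healthy, adjusted p = 1.75e-05). Ifit1 stood at 10.9, 10.7 and 15.2 CPM in WT UUO, against 3.30, 5.44 and 6.02 in contralateral kidneys and 6.47, 6.68 and 8.59 in healthy ones. It rose against contralateral kidney (1.32 ± 0.36, adjusted p = 0.00683) and missed the threshold against healthy kidney (0.76 ± 0.36, adjusted p = 0.0862, and 0.0157 when those groups were fitted alone). Ifit3 overlapped between groups, at 13.2, 21.4 and 27.4 CPM in WT UUO against 7.5, 11.2 and 14.9 in contralateral kidneys, and passed narrowly (0.88 ± 0.33, adjusted p = 0.0364). It no longer passed without WT UUO replicate 2 or 3 or contralateral replicate 1 or 2 (adjusted p = 0.0781, 0.160, 0.143 and 0.0819), with no count filter (adjusted p = 0.0568) or when those groups were fitted alone (adjusted p = 0.07). In healthy kidneys the Ifit3 mean was 16.5 CPM (SD 1.29), beside 20.6 CPM (SD 7.11) in WT UUO. Ifit3 shares sequence with a near-identical copy listed as I830012O16Rik, and Ifit1 has a close relative listed as Gm14446, so how reads were split between them is uncertain.

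All 3 genes of the ISG15 system rose against both unobstructed groups. Isg15 encodes a small protein that is joined to other proteins like ubiquitin, and it stood at 2.96, 2.97 and 3.59 CPM in WT UUO, against 0.324, 0.780 and 1.07 in contralateral kidneys and 0.610, 0.860 and 1.18 in healthy ones. The groups did not overlap (2.13 ± 0.50 against contralateral, adjusted p = 0.00227). Usp18 removes ISG15 from proteins and also shuts off the type I interferon receptor, and it rose by 1.27 ± 0.21 (adjusted p = 1.14e-04). Herc6, the ligase that attaches ISG15 in the mouse, rose by 0.91 ± 0.14 (adjusted p = 7.35e-05).

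The OAS family rose as a block: 6 of 6 passed against each unobstructed group, with a median log2 fold change of 2.20 against contralateral kidney. OAS proteins make the short adenylate chains that activate RNase L, and the OAS-like proteins act without making them or do so weakly. Oas3 had the largest fitted change of the 41 genes, with 2.74, 4.04 and 2.14 CPM in WT UUO, against 0.222, 0.241 and 0.377 in contralateral kidneys and 0.122, 0.0614 and 0.496 in healthy ones (3.40 ± 0.72 against contralateral, adjusted p = 9.72e-04). Its lowest library held only 3 counts, so the fold is loosely set, as the standard error shows. Oasl1 was more tightly measured, at 6.93, 5.83 and 6.00 CPM in WT UUO against 0.820, 1.06 and 1.07 in contralateral kidneys (2.67 ± 0.26, adjusted p = 1.07e-06). Oasl2 rose by 1.90 ± 0.26 (adjusted p = 2.55e-05), and Oas1a, Oas1g and Oas2 rose by 2.24, 2.16 and 2.05 on the log2 scale. Oas1a and Oas1g are close copies, and their split of reads is uncertain.

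The remaining antiviral effectors divided into 7 that rose and 4 that did not pass. Parp14, a mono-ADP-ribosyltransferase, was the best supported, at 110, 117 and 127 CPM in WT UUO against 26.4, 32.7 and 33.7 in contralateral kidneys (1.93 ± 0.18, adjusted p = 8.86e-07). Bst2, or tetherin, which holds budding virus at the cell surface, stood at 17.5, 17.4 and 19.4 CPM in WT UUO against 4.63, 5.89 and 6.22 in contralateral kidneys (1.70 ± 0.23, adjusted p = 2.16e-05). Mx1, of the dynamin-like GTPases, rose by 2.89 ± 0.61 (adjusted p = 9.31e-04), and its neighbour Mx2 did not pass (0.96 ± 0.39, adjusted p = 0.0514). Reads may be split between these copies. Rtp4, Xaf1, Ifi35 and Ifi44 also rose against contralateral kidney, by 1.85, 1.5, 0.83 and 0.91 on the log2 scale. Ifi44 was closer to healthy kidney, with means of 18.9 CPM (SD 7.03) in WT UUO, 16.1 (SD 2.3) in healthy and 10.1 (SD 1.42) in contralateral kidneys. Ifi27l2a did not pass against contralateral kidney (1.19 ± 0.51, adjusted p = 0.0632), and it passed against healthy kidney (1.70 ± 0.52, adjusted p = 0.0116).

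Rsad2 and Cmpk2 did not pass the test in either comparison. Rsad2 encodes viperin, which makes a chain-terminating nucleotide, and Cmpk2 encodes the kinase that supplies its substrate; the genes lie side by side on chromosome 12. Rsad2 stood at 25.6, 20.9 and 27.1 CPM in WT UUO, against 19.5, 22.4 and 22.8 in contralateral kidneys and 23.4, 29.9 and 22.8 in healthy ones. The groups overlapped, and the log2 fold change against contralateral kidney was 0.19 with a 95% interval of −0.42 to 0.80 (adjusted p = 0.608). Cmpk2 stood at 8.56, 8.65 and 10.6 CPM in WT UUO, against 8.37, 10.9 and 8.43 in contralateral kidneys (0.01, interval −0.38 to 0.40, adjusted p = 0.975). Its interval lies inside a change of 1 log2 unit, which Isg15, Ddx58, Bst2 and Oasl1 exceeded in the same libraries. Both genes lie within 7.51 megabases of Twist1 on the chromosome that carries the floxed Twist allele, which the healthy group and 1 library each of WT UUO and contralateral kidney carried as well.

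The guanylate-binding proteins and the immunity-related GTPases, both induced above all by interferon gamma and both directed against intracellular pathogens, divided in the same way. Gbp2 stood at 46.6, 52.9 and 32.7 CPM in WT UUO, against 6.05, 8.84 and 9.52 in contralateral kidneys and 10.9, 6.96 and 17.4 in healthy ones (2.44 ± 0.41 against contralateral, adjusted p = 1.57e-04). Gbp5, which promotes inflammasome assembly, rose by 1.82 ± 0.27 (adjusted p = 3.71e-05) and Gbp7 by 1.12 ± 0.15 (adjusted p = 1.23e-05). Gbp3 and Gbp4 did not pass (0.60 ± 0.45 and 0.62 ± 0.48, adjusted p = 0.277 and 0.293). Gbp3 stood at 35.2, 36.1 and 34.4 CPM in WT UUO, against 33.2, 9.51 and 27.1 in contralateral kidneys and 37.5, 9.03 and 38.4 in healthy ones, so 1 library in each unobstructed group was far below the rest. Gbp4 overlaps Gbp8 and Gbp9 on the same strand in the annotation.

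Of the 4 immunity-related GTPases, Iigp1 (1.58 ± 0.50, adjusted p = 0.0144) and Irgm1 (0.50 ± 0.14, adjusted p = 0.0063) rose against contralateral kidney, and 0 of 4 passed against healthy kidney. The Iigp1 call was lost without contralateral replicate 1 (1.40, adjusted p = 0.0586). At an unadjusted p under 0.05 Iigp1 was among those that passed against healthy kidney, and DESeq2 called it there (adjusted p = 0.0285). Igtp stood at 10.4, 13.4 and 10.9 CPM in WT UUO, against 6.99, 11.0 and 8.61 in contralateral kidneys and 5.78, 6.90 and 14.6 in healthy ones, and overlapped both (0.38 ± 0.34 against contralateral, adjusted p = 0.368). Irgm2 overlaps Igtp on the same strand and had a value of 0.41 ± 0.26 (adjusted p = 0.194), and passed when those groups were fitted alone (adjusted p = 0.0331). Healthy replicate 3 held the highest value of each of these 4 genes in its group, and without it Igtp, Irgm1, Irgm2 and Iigp1 each passed against healthy kidney (adjusted p = 0.0305, 0.0327, 0.0292 and 0.00594).

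Levels can be compared between genes only per length of exon. Per kilobase, Ifi27l2a, a small mitochondrial protein, was highest in WT UUO kidney at 39.6 CPM per kilobase, followed by Bst2 at 20.1, Gbp2 at 17.5, Parp14 at 12.7, Ddx58 at 11.9 and Ifit3 at 11.8. The lowest were Oas3 at 0.421 and Oas1g at 1.02. In contralateral kidney the highest were again Ifi27l2a at 17.4, then Gbp3 at 7.13, Irgm1 at 6.59 and Ifit3 at 6.41. Rsad2, which did not pass, lay at 5.66 CPM per kilobase in WT UUO and 4.97 in contralateral kidney, well above Oas3 and Mx1 (0.0397 and 0.181 in contralateral kidney).

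No gene of the list passed the test between contralateral and healthy kidney. By edgeR 0 of the 41 were called at an adjusted p under 0.05, where 2.26% of all tested genes were called. At an unadjusted p under 0.05 there were 3 (Ifih1, Ifi44 and Herc6), where 17.4% of all tested genes were, and DESeq2 called 1. Each was lower in contralateral kidney. Ifih1 stood at 22.4, 21.1 and 23.4 CPM in contralateral against 25.3, 28.2 and 31.4 in healthy kidneys (−0.34 ± 0.11, edgeR adjusted p = 0.104, and DESeq2 adjusted p = 0.0469). Ifi44 differed by −0.68 ± 0.22 (adjusted p = 0.128) and Herc6 by −0.35 ± 0.14 (adjusted p = 0.217). In 6 of the 41 genes (14.6%), the 3 IFIT genes among them, every contralateral library lay below every healthy one, where 8.29% of all tested genes did. The other genes had small differences, with Irf7 at −0.08, Isg15 at −0.29, Ifit1 at −0.56, Stat2 at 0.23, Irf1 at 0.01, Gbp2 at −0.54 and Igtp at −0.04, and adjusted p-values of 0.45 to 0.98.

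Around the list, receptors and signal transducers rose, while most interferon genes were too low to be tested. Of 9 interferon genes listed, 6 were in the table. Ifnb1 reached at most 0.0536 CPM, Ifng 0.0913, Ifna4 0.013, Ifne 0.0122 and Ifna2 0.0118 CPM in any library, and only Ifnk passed the filter. Ifnk, a type I interferon of epithelia, stood at 0.745, 0.412 and 0.574 CPM in WT UUO against 0.871, 1.58 and 1.58 in contralateral kidneys and fell (−1.21 ± 0.40, adjusted p = 0.0175). It overlaps Mob3b on the opposite strand, and whether counting used strand was not stated. Of 6 receptor chains 5 rose against contralateral kidney and 6 against healthy kidney. Ifngr2 rose by 1.78 ± 0.11 and Ifngr1 by 1.92 ± 0.13, the chains of the interferon gamma receptor. Ifnar1 of the type I receptor rose by 0.89 ± 0.08 against contralateral kidney (adjusted p = 4.5e-08, 9.1e-08 and 8.26e-07 in that order).

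All 6 listed genes for the receptor-bound kinases and for the inhibitors of the pathway rose in WT UUO against contralateral kidney. Socs3, an inhibitor of cytokine receptors that also answers to interleukin-6, had the largest change of these, at 55.9, 43.4 and 41.4 CPM in WT UUO against 4.46, 4.11 and 2.20 in contralateral kidneys (3.71 ± 0.24, adjusted p = 5.78e-08). Among 14 measured genes that lead to interferon production or restrain it 10 rose and 2 fell against contralateral kidney. Adar and Samhd1, which restrain the sensing of nucleic acid, were among those that rose (0.50 ± 0.11 and 1.18 ± 0.15). Tmem173, which encodes STING, rose by 3.45 ± 0.26 (adjusted p = 1.49e-07), and Tlr7 by 2.84 ± 0.28 (adjusted p = 9.96e-07). Mavs, the mitochondrial adaptor of RIG-I and MDA5, fell to 27.9, 33.8 and 31.1 CPM in WT UUO, against 66.5, 67.3 and 72.5 in contralateral kidneys (−1.15 ± 0.11, adjusted p = 7.26e-07), so the sensors Ddx58 and Ifih1 rose while their adaptor fell. Of 26 other interferon-induced genes 22 rose and 1 fell. The smallest p-values were those of Ifitm3, which hinders the fusion of viruses in endosomes (2.13 ± 0.18, adjusted p = 4.19e-07), and of the partners Parp9 and Dtx3l (1.36 ± 0.12 and 1.49 ± 0.15, adjusted p = 5.76e-07 and 1.65e-06).

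Markers of several immune cell types also rose in obstructed kidney, though not all of them. All 11 macrophage markers rose in WT UUO against contralateral kidney, with a median log2 fold change of 3.40, and their summed level was 854 to 1360 CPM in WT UUO, 113 to 128 in contralateral and 91.0 to 182 in healthy kidneys. None of the 11 was at 0 in any library. Healthy replicate 3, the highest healthy library for 36 of the 41 genes, also had the highest macrophage sum of its group, at 182 CPM. Its T cell, NK cell, neutrophil, dendritic, plasmacytoid, fibroblast, adipocyte and erythroid sums were the highest too. Its B cell, podocyte and urothelial sums were not, and its endothelial and tubule sums were the lowest. T cell markers rose in 5 of 7 cases, with sums of 9.34 to 14.3 CPM in WT UUO and 3.52 to 3.89 in contralateral kidneys. NK cell markers rose in 5 of 7 cases, with sums of 1.93 to 6.15 and 0.547 to 0.738 CPM. Healthy kidneys had NK cell sums of 0.651 to 2.47 CPM, which overlapped WT UUO. Ncr1, Klrb1c and Gzma were each at 0 in 1 library. Plasmacytoid dendritic cell markers rose in 3 of 5 cases, with sums of 13.6 to 18.4 and 3.94 to 4.82 CPM. Proximal tubule markers summed to 624 to 1450 CPM in WT UUO and to 11200 to 14500 CPM in contralateral kidneys. The part of cell makeup in the change of the 41 genes was not tested.

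Obstructed kidneys of the 3 knockouts also showed the rise. Against contralateral kidneys 29 of the 41 genes rose in Twist cKO UUO, where 42.9% of all tested genes were called and 21.5% were called higher. In Snail cKO UUO 33 rose, against 46.4% called and 23.7% called higher among all genes. In Myc cKO UUO 34 rose, against 44.5% called and 22% called higher. None of the 41 fell in any of these comparisons, and the median log2 fold changes were 1.09, 1.26 and 1.26, beside 1.32 in WT UUO. All 4 comparisons share the 3 contralateral libraries. In all, 29 genes rose in each of the 4 obstructed groups. The share of all tested genes that rose in all 4 was not counted, so this number has no baseline here. Ifit1, Isg15, Ifi44 and Iigp1 rose in 3 groups, and Mx2 rose in Myc cKO UUO only among those tests. Rsad2, Cmpk2, Ifi27l2a, Gbp3, Gbp4, Igtp and Irgm2 passed in 0 of the 4 when all 18 libraries were fitted together, and Irgm2 passed in Myc cKO UUO when those groups were fitted alone (adjusted p = 0.0373). Without contralateral replicate 1 the counts were 22 in Twist, 30 in Snail and 27 in Myc cKO UUO.

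Single genes illustrate the range. Irf7 rose against contralateral kidney by 1.15 ± 0.26 in Twist, 1.51 ± 0.26 in Snail and 1.26 ± 0.26 in Myc cKO UUO (edgeR adjusted p = 0.00223, 2.47e-04 and 0.0011). Gbp2 rose by 2.06 ± 0.41, 2.43 ± 0.41 and 2.33 ± 0.41 in the same order (adjusted p = 9.66e-04, 2.38e-04 and 3.82e-04), and Irf1 by 1.36, 1.51 and 1.26. Stat2 rose by 0.47, 0.61 and 0.45. Its call was lost without contralateral replicate 1 or Twist replicate 1 in Twist cKO UUO (adjusted p = 0.0694 and 0.0647), and without contralateral replicate 1 or Myc replicate 1 or 2 in Myc cKO UUO (adjusted p = 0.0805, 0.0725 and 0.0678). Isg15 passed in Snail (1.92 ± 0.50, adjusted p = 0.00552) and in Myc (1.5 ± 0.5, adjusted p = 0.0231) and missed the threshold in Twist cKO UUO (1.12 ± 0.50, adjusted p = 0.0807). The Myc call was lost when those groups were fitted alone (adjusted p = 0.0907), without contralateral replicate 1 or 2 (adjusted p = 0.0918 and 0.054) and without Myc replicate 1 (0.87, adjusted p = 0.172). In Twist cKO UUO Isg15 passed without contralateral replicate 3 (1.52, adjusted p = 0.0479). Ifit1 stood at 1.03 ± 0.36 in Snail, 1.15 ± 0.36 in Myc and 0.78 ± 0.36 in Twist cKO UUO (adjusted p = 0.0301, 0.0189 and 0.0986). Its Snail call was lost when those groups were fitted alone and without contralateral replicate 1 or 2 or Snail replicate 2 or 3 (adjusted p = 0.055 to 0.136). Its Myc call was lost without contralateral replicate 1 or Myc replicate 1 (adjusted p = 0.0809 and 0.0641), and in Twist cKO UUO it passed without Twist replicate 2 (adjusted p = 0.0442). Igtp had values of 0.14, 0.58 and 0.34, none past the threshold (adjusted p = 0.768, 0.179 and 0.451).

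**Figure D3:**
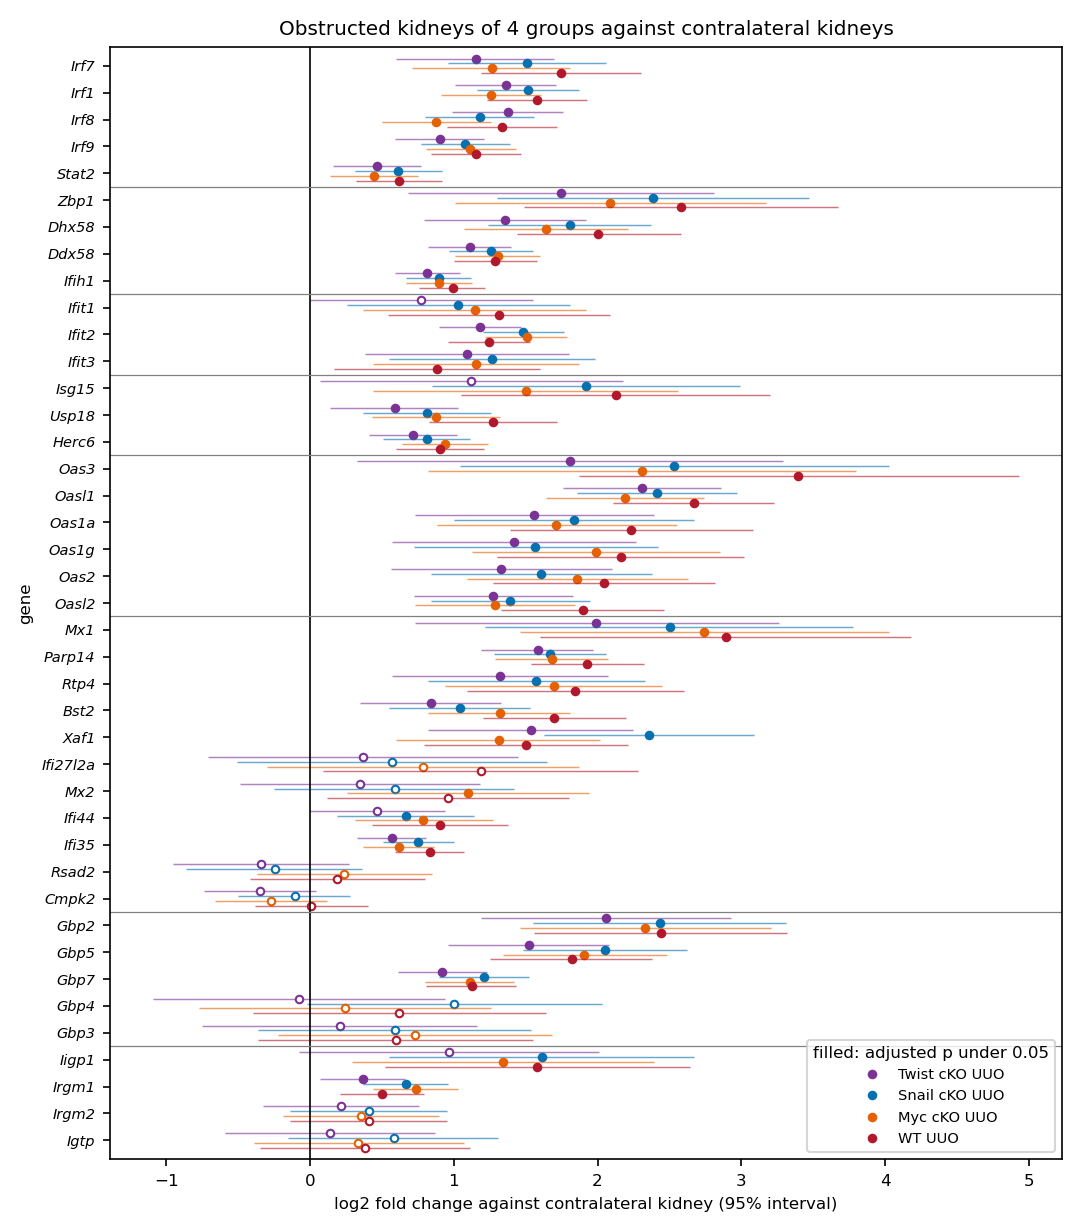
Log2 fold change of each of the 41 genes in obstructed kidneys of the 4 groups against contralateral kidneys, with 95% intervals; filled points passed an adjusted p of 0.05. Most points lie right of 0 in all 4 groups, and those of Rsad2 and Cmpk2 lie on either side of 0.

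Most of the 41 genes had lower values in Twist cKO UUO than in WT UUO kidneys, and all but 1 missed the threshold. Between Twist cKO UUO and WT UUO kidneys 1 of the 41 genes was called, lower, where 5.28% of all tested genes were called and 2.31% were called lower. The 1 gene is 2.44% of the 41, near the share of all genes that were called lower. At an unadjusted p under 0.05 there were 7, where 22.9% of all tested genes were, and DESeq2 called 2. Of the 41 log2 fold changes 38 were negative, with a median of −0.39 against −0.007 over all tested genes. In 19 of the 41 genes (46.3%) every Twist cKO UUO library lay below every WT UUO library, where 17% of all tested genes were lower without overlap, and in 0 genes every library lay above, where 15.7% of all tested genes were higher without overlap. The fit of all 18 libraries gave intervals that included 0 for 34 of the 41.

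Bst2 was the gene that passed. It stood at 11.6, 8.02 and 10.4 CPM in Twist cKO UUO, against 17.5, 17.4 and 19.4 CPM in WT UUO, without overlap (−0.86 ± 0.23, edgeR adjusted p = 0.0427). The call did not survive the removal of any 1 of the 6 libraries (adjusted p = 0.0677 to 0.163), a Cre term in the model (adjusted p = 0.071) or the absence of a count filter (adjusted p = 0.0529). Usp18 came next, at 5.18, 4.34 and 5.32 CPM in Twist cKO UUO against 8.73, 7.87 and 7.25 CPM in WT UUO (−0.69 ± 0.21, adjusted p = 0.0654 by edgeR and 0.0168 by DESeq2). These libraries did not overlap either. Oas3 had the largest difference, with 1.64, 0.803 and 0.511 CPM in Twist cKO UUO against 2.74, 4.04 and 2.14 CPM in WT UUO (−1.59 ± 0.65, adjusted p = 0.159).

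The 19 genes that were lower in Twist cKO UUO without overlap, where 17% of all tested genes were, came from 6 of the 8 roles. They were 5 of 6 OAS genes, 5 of 11 other antiviral effectors, 3 of 4 sensors, 3 of 5 guanylate-binding proteins, 2 of 3 genes of the ISG15 system, 1 of 5 transcription factors, 0 of 3 IFIT genes and 0 of 4 immunity-related GTPases. Differences between roles were not tested. Irf7 stood at 16.3, 14.1 and 12.6 CPM in Twist cKO UUO, against 22.9, 21.1 and 21.0 CPM in WT UUO (−0.60 ± 0.25, adjusted p = 0.175). Isg15 stood at 2.24, 1.41 and 1.08 CPM in Twist cKO UUO, against 2.96, 2.97 and 3.59 CPM in WT UUO (−1.01 ± 0.48, adjusted p = 0.229). In both genes the groups did not overlap while the test was not passed. The sensors Dhx58 and Zbp1 differed by −0.65 ± 0.26 and −0.83 ± 0.48 (adjusted p = 0.142 and 0.319), and Oasl2 by −0.63 ± 0.26 (adjusted p = 0.158). Smaller differences were those of Irf1 (−0.22), Stat2 (−0.15), Gbp2 (−0.38), Igtp (−0.24) and Ifit1 (−0.54), with adjusted p-values of 0.399 to 0.737. Ifit2 and Ifit3 were near level, at −0.06 and 0.21. Rsad2 stood at 26.7, 11.1 and 13.2 CPM in Twist cKO UUO against 25.6, 20.9 and 27.1 CPM in WT UUO (−0.53, 95% interval −1.14 to 0.08). Cmpk2, its neighbour near Twist1, had a mean of 7.23 CPM (SD 1.27) in Twist cKO UUO and 9.27 CPM (SD 1.16) in WT UUO.

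Twist cKO UUO replicate 1 was the highest of its group in 35 of the 41 genes. The mean over the 41 genes was 3.82, 3.31 and 3.40 log2 CPM in Twist cKO UUO, against 3.91, 4.03 and 4.02 in WT UUO, so that the knockout libraries all lay below the WT ones. Without that replicate the median log2 fold change was −0.66, with 40 of 41 negative, and 0 genes were called. Macrophage markers were lower as well: 4 of 11 passed the test as lower (C1qa, C1qb, C1qc and Mrc1), where 2.31% of all tested genes were called lower. Macrophage sums were 539 to 707 CPM in Twist cKO UUO and 854 to 1360 CPM in WT UUO. Twist cKO UUO replicate 1, the highest for most of the 41 genes, did not have the highest macrophage sum, which was 694, 707 and 539 CPM in replicates 1 to 3. Its T cell sum was the highest of the group, at 20.1 CPM against 12.0 and 7.64. Its NK cell, B cell, neutrophil, dendritic, endothelial, adipocyte, urothelial and erythroid sums were the highest too. Its plasmacytoid, podocyte and tubule sums were not, and its fibroblast sum was the lowest. Sums of other lists also differed from WT UUO without overlap. They were lower for endothelium (267 to 307 against 322 to 465 CPM) and fibroblasts (1810 to 2170 against 3710 to 7260 CPM). Neutrophil, B cell and adipocyte sums were lower too. Proximal tubule sums were higher (2140 to 3580 against 624 to 1450 CPM), as were those of loop, distal tubule and collecting duct. T cell, NK cell, dendritic, plasmacytoid, podocyte, urothelial and erythroid sums overlapped. The part of cell makeup in the differences of the 41 genes was not tested.

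**Figure D4:**
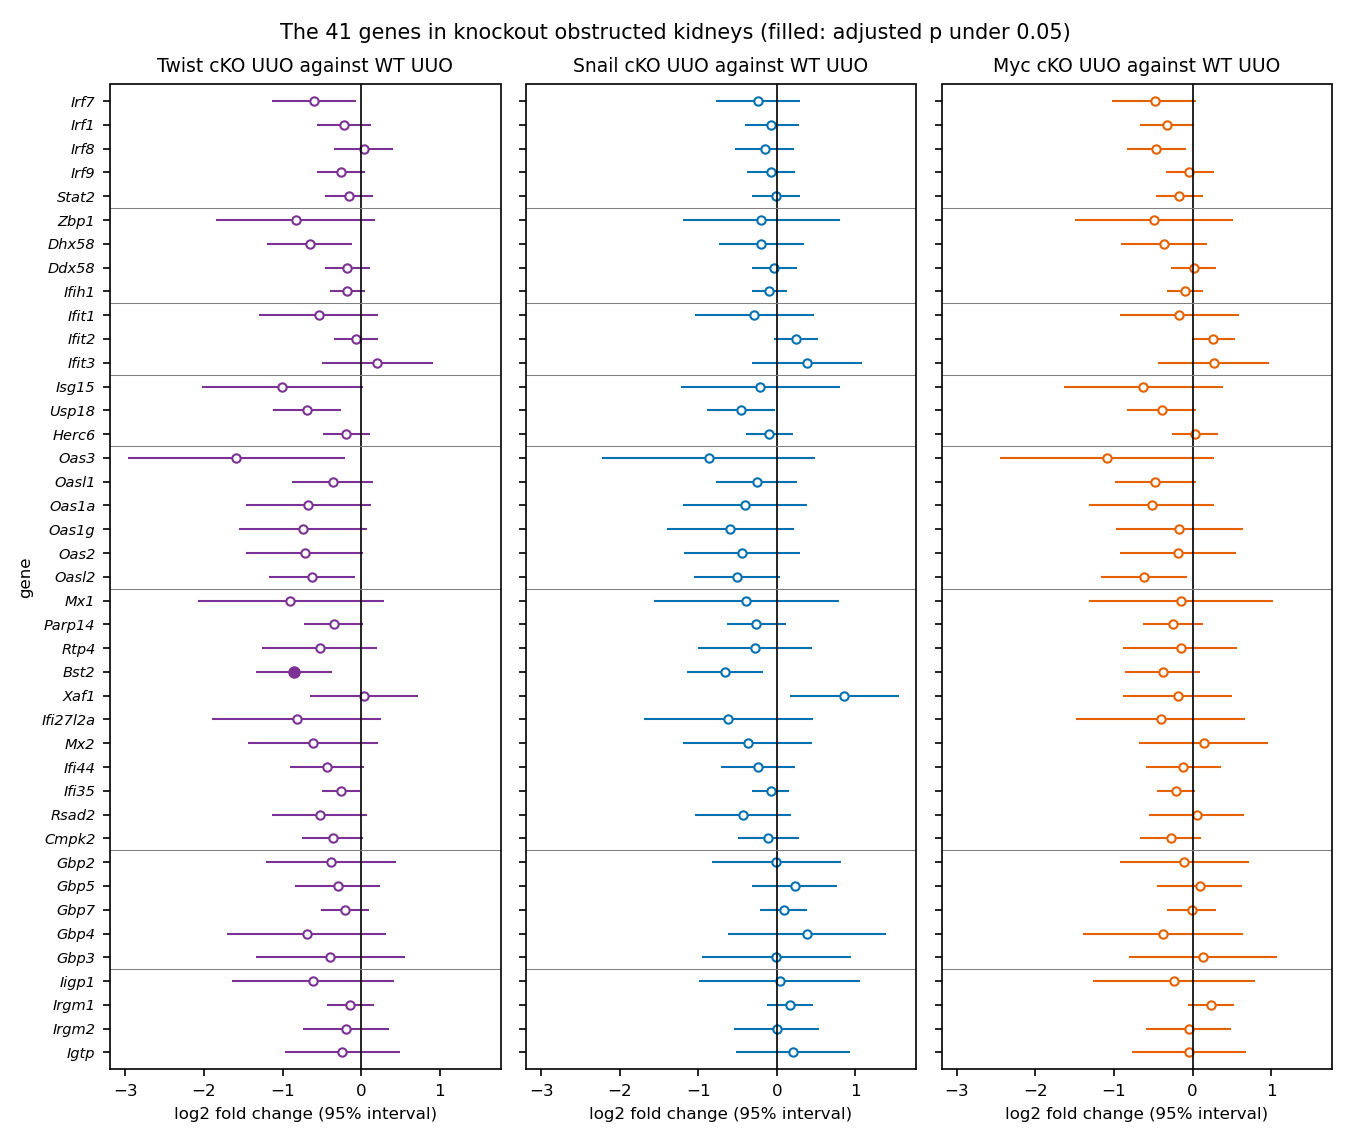
Log2 fold change of each of the 41 genes with 95% intervals in Twist, Snail and Myc cKO UUO kidneys against WT UUO kidneys; the filled point passed an adjusted p of 0.05. Bst2 in Twist cKO UUO is the single filled point, and 38 of 41 points lie left of 0 in the Twist panel, against 31 in the Snail and 32 in the Myc panel.

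In Snail cKO UUO against WT UUO 0 of the 41 genes were called by edgeR, where 0.299% of all tested genes were called. At an unadjusted p under 0.05 there were 3, where 14.9% of all tested genes were, and DESeq2 called 0. The median log2 fold change was −0.15, with 31 of 41 negative. Snail cKO UUO replicate 1 was the lowest of its group in 41 of the 41 genes, and the mean over the genes was 3.28, 4.07 and 4.03 log2 CPM in Snail cKO UUO, against 3.91, 4.03 and 4.02 in WT UUO. Without replicate 1 the median was 0.03 and 25 of the 41 differences were positive, so the lower median rested on that library. Its macrophage sum was 651 CPM, against 890 and 680 CPM in the other Snail cKO UUO libraries. Its T cell, NK cell, dendritic, endothelial, podocyte, adipocyte and urothelial sums were the lowest of the group too. Its B cell and erythroid sums and that of loop, distal tubule and collecting duct were the highest.

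Xaf1, a pro-apoptotic antagonist of the inhibitor XIAP, went the other way. It stood at 14.9, 24.4 and 18.3 CPM in Snail cKO UUO, against 9.55, 10.8 and 11.4 CPM in WT UUO, and the groups did not overlap (0.86 ± 0.32, adjusted p = 0.235). Bst2 and Usp18 had the other small p-values, at −0.66 ± 0.23 and −0.46 ± 0.21 (adjusted p = 0.198 and 0.314). For both of these genes all 3 Snail cKO UUO libraries lay below all 3 WT UUO libraries. Of the 41 genes 5 (12.2%) were lower without overlap, where 12.2% of all tested genes were. Xaf1 was the 1 gene (2.44%) that was higher without overlap, where 12.8% of all tested genes were. Irf7 differed by −0.24, Isg15 by −0.21, Ifit1 by −0.29, Stat2 by −0.01, Irf1 by −0.07, Gbp2 by −0.01 and Igtp by 0.20 on the log2 scale, with adjusted p-values of 0.718 to 0.996. Zbp1 lies 5.67 megabases from Snai1, the gene targeted in Snail cKO mice. Its mean was 5.1 CPM (SD 2.26) in Snail cKO UUO and 5.83 CPM (SD 0.872) in WT UUO. The 95% interval excluded a fall of 1 log2 unit for 27 of the 41 genes, and it ran from −1.22 to 0.80 for Isg15, so a sizeable change of that gene was not detectable with 3 libraries a group.

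In Myc cKO UUO against WT UUO 0 of the 41 genes were called by edgeR, where 12.2% of all tested genes were called. At an unadjusted p under 0.05 there were 2 (Irf8 and Oasl2), where 27.9% of all tested genes were, and DESeq2 called 0. The median log2 fold change was −0.17, with 32 of 41 negative, and 9 genes (22%) were lower without overlap, where 16.6% of all tested genes were. Irf8 stood at 22.7, 27.4 and 16.1 CPM in Myc cKO UUO, against 29.8, 31.2 and 30.1 CPM in WT UUO (−0.46 ± 0.18, adjusted p = 0.103). It passed without Myc cKO UUO replicate 2 (−0.63, adjusted p = 0.0477). Oasl2 differed by −0.62 ± 0.26 (adjusted p = 0.129) and Irf7 by −0.48 ± 0.25 (adjusted p = 0.226). Ifit2 lay higher in every Myc cKO UUO library, at 41.6, 36.5 and 40.5 CPM against 30.2, 33.4 and 35.2 CPM in WT UUO (0.26 ± 0.13, adjusted p = 0.202). Of the 41 genes 2 (4.88%) were higher without overlap, where 15.3% of all tested genes were. The other genes were Isg15 at −0.63, Ifit1 at −0.17, Stat2 at −0.17, Irf1 at −0.33, Gbp2 at −0.11 and Igtp at −0.04, with adjusted p-values of 0.203 to 0.95.

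Myc cKO UUO replicate 3 was the lowest of its group in 37 of the 41 genes, and the mean over the genes was 4.0, 3.85 and 3.42 log2 CPM in the 3 Myc cKO UUO libraries. Without it the median against WT UUO was −0.04. That library also had the lowest macrophage sum (599 CPM, against 891 and 886) and the highest share of mitochondrial ribosomal RNA of the knockouts (34.9%). Its T cell, NK cell, dendritic, plasmacytoid, fibroblast and urothelial sums were the lowest of the group too. Its neutrophil, adipocyte, erythroid and tubule sums were the highest. Macrophage markers fell in 3 of 11 cases in Myc cKO UUO against WT UUO, where 6.91% of all tested genes were called lower. Around the list, 2 of 6 receptor chains fell in Myc cKO UUO, Ifnar1 (−0.32 ± 0.08, adjusted p = 0.0245) and Ifngr2 (−0.36 ± 0.11, adjusted p = 0.0419), and so did Tyk2, the kinase bound to the type I receptor (−0.55 ± 0.11, adjusted p = 0.00778), and Socs3 (−0.77 ± 0.22, adjusted p = 0.0315). Ifitm3 fell in Twist cKO UUO (−0.98 ± 0.18, adjusted p = 0.0152) and in Myc cKO UUO (−0.65 ± 0.18, adjusted p = 0.028). In Twist cKO UUO Ifi204, a DNA sensor of the pyrin and HIN domain family, fell too (−1.02 ± 0.28, adjusted p = 0.0466), while Mavs was higher, at 47.1, 46.6 and 45.4 CPM against 27.9, 33.8 and 31.1 CPM in WT UUO (0.59 ± 0.11, adjusted p = 0.0157). All 3 knockouts were set against the same 3 WT UUO libraries.

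**Figure D5:**
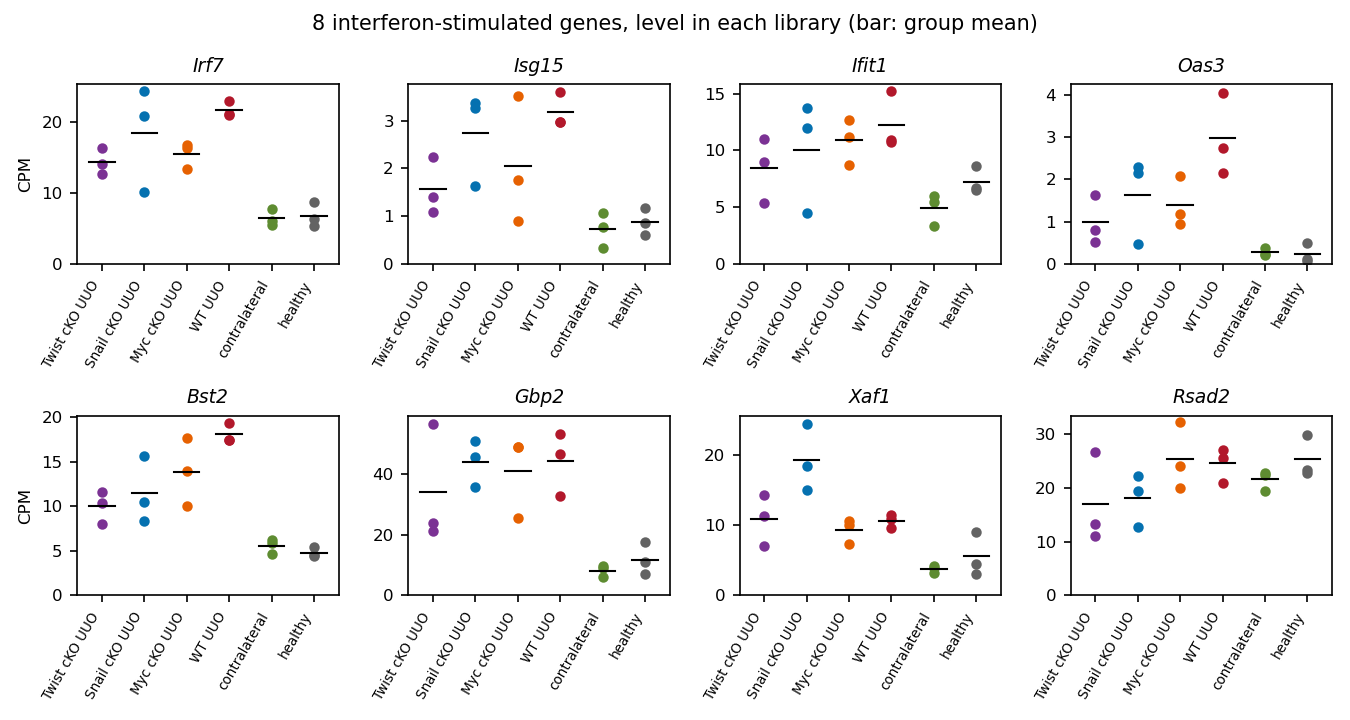
CPM of 8 genes (panels, linear axes from 0) in each library (points) of the 6 groups, with the group mean as a bar. Irf7, Isg15, Oas3, Bst2 and Gbp2 are higher in WT UUO than in unobstructed kidneys, Xaf1 is highest in Snail cKO UUO, and Rsad2 spans 11.1 to 32.3 CPM with no step between obstructed and unobstructed groups.

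The knockouts were compared with each other directly. In Twist against Snail cKO UUO 0 of the 41 genes were called by edgeR, where 0.171% of all tested genes were called, with 4 at an unadjusted p under 0.05, against 6.52% of all genes. Of the 41 differences 40 were negative, with a median of −0.24. Xaf1 (−0.82 ± 0.32, adjusted p = 0.683) and Gbp4 (−1.08 ± 0.48, adjusted p = 0.751) had the widest of the small p-values. In Myc against Twist cKO UUO 0 were called, where 2.99% of all tested genes were called, with 3 at an unadjusted p under 0.05, against 17.6% of all genes, and a median of 0.29. These were Irf8 (−0.50 ± 0.18, adjusted p = 0.146), Irgm1 (0.37 ± 0.14, adjusted p = 0.165) and Ifit2 (0.32 ± 0.13, adjusted p = 0.205). In Myc against Snail cKO UUO 0 were called by edgeR, where 2.45% of all tested genes were called. Xaf1 alone had an unadjusted p under 0.05, where 17.1% of all genes did (−1.05 ± 0.33, adjusted p = 0.105), and it was the gene that DESeq2 called (adjusted p = 0.0247). Xaf1 stood at 10.5, 9.95 and 7.36 CPM in Myc cKO UUO against 14.9, 24.4 and 18.3 CPM in Snail cKO UUO, without overlap. It was the 1 gene of the 41 (2.44%) that was lower without overlap, where 12% of all tested genes were. Irf7, Isg15, Ifit1, Stat2, Irf1, Gbp2 and Igtp differed by −0.80 to 0.38 in these 3 comparisons, and none passed.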

How the data were processed

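Whole-kidney RNA was sequenced from a stranded total RNA library kit in 75-base paired reads, per the labels' protocols. The authors deposited raw counts of reads per gene symbol for build mm10, and the submitters' processing notes name bcl2fastq 1.8.4, HTSeq and DESeq2. Aligner, annotation and strand option: not given in the sources used here. Columns were matched to 18 samples by their titles, and 6 count columns that matched no sample were not used. Genes were filtered with edgeR 4.0.16 (filterByExpr), scaled by TMM and fitted over all 18 libraries with a mean per group by the robust quasi-likelihood test, two-sided, with Benjamini-Hochberg adjustment over 21050 genes and a threshold of 0.05. CPM are TMM-scaled, and log2 CPM used a prior count of 1. Log2 fold changes are given ± standard error. The fit was tested on data simulated for Twist cKO UUO against WT UUO. It recovered 44 of 100 changes of 2-fold and 92 of 100 changes of 4-fold, with 4 false calls among 140. Simulated counts took the average spread at each expression level and not each gene's own. Changes were planted only in genes above a count floor, and group means were otherwise equal. Recovery in the real data may therefore be lower. Many true changes of 2-fold or less would thus be missed.

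Replicate numbers follow sample order and only name the libraries. The 41 genes and the pathway and marker lists were chosen with earlier results of these data known. Genes named with a fold change were the 3 with the smallest p per role, with Irf7, Isg15, Ifit1, Stat2, Irf1, Gbp2 and Igtp, the 3 smallest per pathway list, and genes within 20 megabases of a targeted gene. Where 0 of the 41 were called, the 3 smallest p-values over the list were taken in place of 3 per role, a narrowing made after the values were seen; Xaf1, Ifi27l2a, Mx2 and other named genes outside the rule were also chosen after their values were seen. Gene positions and exon lengths came from GENCODE M21 and promoters from RefSeq (GRCm38.p6). Alternatives were DESeq2 1.42.0 (size factors, and its own test), no count filter, leaving out mitochondrially encoded genes, a term for Cre presence or for sex (read from Xist and Ddx3y), a fit of 2 groups alone, and omission of each library in turn. From the pathway lists 1 gene is not reported here.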

Additional observations from a re-analysis of the deposited data

How the results depend on the processing

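The median log2 fold change over the 41 genes in obstructed against unobstructed kidney stayed between 0.87 and 1.49 under the alternatives run, while single calls did not all hold. Of 118 calls of named genes in those comparisons, 13 were lost in 43 fits, 35 of them without 1 library. All 13 were against contralateral kidney: Ifit3 in WT UUO and in Twist and Myc cKO UUO, Iigp1 in WT UUO and in Snail and Myc cKO UUO, and, among the knockouts, Ifit1 in Snail and Myc, Isg15 in Myc, Stat2 in Twist and Myc, and Irgm1 and Usp18 in Twist. Another 9 differences passed in some alternative. When each library was left out in turn, 31 to 35 of the 41 genes were called in WT UUO against contralateral kidney and 27 to 33 against healthy kidney. The counts against contralateral kidney were 22 to 29 in Twist, 30 to 35 in Snail and 27 to 34 in Myc cKO UUO. The single call of Twist cKO UUO against WT UUO was not stable. It became 0 with a Cre term, 0 with no count filter and 0 to 0 without each library, against 2 by DESeq2 and 5 when those groups were fitted alone. The cause was not tested. For each alternative fit the share of all tested genes called is not given here, so the counts of such fits have no baseline. DESeq2 called 1 gene between contralateral and healthy kidney and 1 between Myc and Snail cKO UUO. Leave-one-out counts ran from 0 to 1 in Myc against Twist cKO UUO (1 without Twist replicate 1) and in Myc cKO UUO against WT UUO (1 without Myc replicate 2).

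Of 221 differences of named genes, 26 changed sign under some alternative, and 0 of these 26 had passed the test. With the sex term Gbp2 stood at 0.061 and Stat2 at 0.01 in Snail cKO UUO against WT UUO, and with the Cre term Stat2 stood at 0.052 there, Ifit1 at 0.007 in Myc cKO UUO against WT UUO and Isg15 at 0.051 in contralateral against healthy kidney. Irf1 stood at 0 between those kidneys when they were fitted alone.

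The other sign changes came from leaving out 1 library, and the log2 ranges follow. In Twist cKO UUO against WT UUO they were −0.137 to 0.029 for Ifit2 and −0.022 to 0.471 for Ifit3. In Snail cKO UUO against WT UUO they were −0.176 to 0.157 for Gbp2, −0.57 to 0.081 for Ifit1, 0 to 0.389 for Igtp, −0.12 to 0.009 for Irf1, −0.481 to 0.068 for Irf7, −0.369 to 0.072 for Isg15 and −0.121 to 0.117 for Stat2. In Myc cKO UUO against WT UUO they were −0.264 to 0.144 for Gbp2, −0.298 to 0.028 for Ifit1 and −0.1 to 0.095 for Igtp. In Twist cKO UUO against contralateral kidney they were −0.284 to 0.372 for Igtp and −0.011 to 0.386 for Irgm2. Between contralateral and healthy kidney they were −0.281 to 0.486 for Igtp, −0.12 to 0.147 for Irf1, −0.227 to 0.151 for Irf7 and −0.684 to 0.061 for Isg15. Between Twist and Snail cKO UUO Ifit1 ran from −0.611 to 0.04. Between Myc and Twist cKO UUO they were −0.015 to 0.641 for Igtp, −0.203 to 0.058 for Irf1, −0.25 to 0.735 for Isg15 and −0.086 to 0.106 for Stat2. Between Myc and Snail cKO UUO they were −0.244 to 0.15 for Gbp2, −0.234 to 0.418 for Ifit1 and −0.533 to 0.016 for Irf7.

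No paired analysis was possible because no replicate number in the labels is shared between groups or tied to an animal. The labels do not say whether contralateral and WT UUO kidneys came from the same mice. Replicate by replicate, these groups had the same Cre presence and the same sex by Xist and Ddx3y. The fit treated all libraries as independent. With 3 libraries a group, genes at low counts such as Oas3, Isg15 and Mx1 had standard errors that leave sizeable differences undetectable.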

Other observations

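Gbp3 had 1 low library in each unobstructed group. It stood at 9.51 CPM in contralateral replicate 2 and at 9.03 CPM in healthy replicate 2, against 27.1 to 38.4 CPM in the other 4 unobstructed libraries. These 2 were also the only unobstructed libraries in which the Y-linked gene Ddx3y exceeded Xist. In obstructed kidneys the 6 libraries with Ddx3y above Xist held 21.7, 28.5, 36.2, 36.8, 45.8 and 36.1 CPM of Gbp3, against 28.9 to 40.4 CPM in the 6 others, so 2 of the 6 lay below that range and 1 above it. The pattern was chosen after its values were seen, rests on 2 libraries and was not tested.

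Around the interferon pathway, Cxcl10, a chemokine that draws T cells and is itself induced by interferon gamma, stood at 6.20, 7.36 and 3.42 CPM in WT UUO, against 0.683, 1.06 and 1.08 CPM in contralateral kidneys. The close relative of Ifit1 listed as Gm14446 stood at 0.970, 1.07 and 1.47 CPM in WT UUO against 2.52, 2.66 and 2.16 CPM in healthy kidneys. It fell in that comparison (−1.06, edgeR adjusted p = 0.0162), in which Ifit1 itself did not pass.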
